A study of Rattus norvegicus with 4 samples.

Results

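A set of 10 genes of protein folding in the endoplasmic reticulum was followed in the rat oral epithelial line ROE2 over 9 days at 37 °C. They were chosen by name, as all probe sets annotated to Hspa5, Hsp90b1, Dnajb9, Dnajb11, Calr, Canx, Pdia3, Pdia4, Pdia6 and Xbp1, which gave 13 probe sets of the 31099 on the array and 10 of 14218 named genes. All 10 genes lay above the floor used here, which asks that a gene reach 6 on the log2 scale on 1 or more of the 4 arrays, as did 8802 genes in all. Of the 13 probe sets 12 were above it, and the exception was the dimmer of the 2 for Pdia3.

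ROE2 is an immortalized line from the tongue of a fetus of 18 days, taken from a transgenic Wistar rat with a gene for tsSV40 large T-antigen, a form of this viral protein that loses function at higher temperature. It is 1 line, and nothing in the labels says that the 4 days came from separate cultures. Cells were grown on collagen at 33 °C for 24 h in medium with 2% serum, 1% ITES supplement (insulin, transferrin, ethanolamine and selenite) and 10 ng/ml EGF, then moved to 37 °C for 0 (the control), 3, 6 or 9 days. Each day had 1 array, so there were no replicates, no test was run and each difference lacks a replicate check. The time at 37 °C, the change in T antigen that the warmer temperature brings, and the array itself cannot be told apart.

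Secreted and membrane proteins enter the endoplasmic reticulum as unfolded chains. There chaperones of the Hsp70 and Hsp90 families and the lectin chaperones bind them, and protein disulfide isomerases form and rearrange their disulfide bonds. When unfolded chains build up, the sensors IRE1, PERK and ATF6 start the unfolded protein response, in which XBP1 and ATF6 raise the chaperone genes through promoter elements of the ERSE type, while PERK acts through ATF4 on genes of amino acid supply and stress.

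Across the 4 days most of these genes differed by less than 2-fold. Dnajb9 was the 1 member to reach 2-fold against day 0, and it did so on day 9. For 7 of the 10 genes the lowest value was on day 3, and 7 were at their highest on day 9. Some of these gaps were small. For Pdia3 day 6 lay only 0.001 above day 3, and on day 3 Pdia6 and Hspa5 were at -0.04 and -0.08 from day 0. The lowest value fell on day 3 for 13.7% of all genes above the floor, and the highest on day 9 for 20.7%. The hybridisation spike-ins read higher on each later array, and when they served as the zero point 2 of the 10 were lowest on day 3 and 1 was highest on day 9. That zero point also moved the median gene, to -0.21, -0.59 and -0.77 on days 3, 6 and 9 against day 0. With arrays centred on housekeeping genes 5 members were lowest on day 3 and 9 highest on day 9. Centred on the median level of those genes, the counts were 0 and 9. The shares of all genes above are for the values as deposited.

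**Figure D1:**
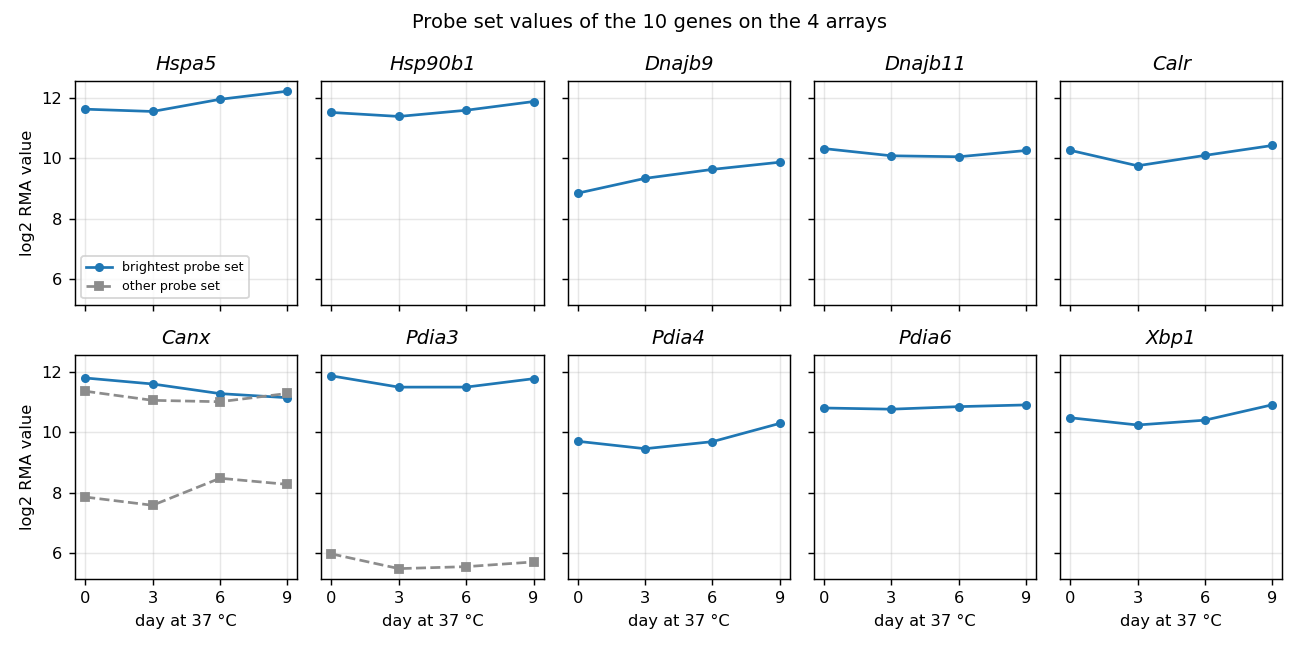
Log2 RMA value of each probe set (vertical axis) on days 0, 3, 6 and 9 at 37 °C (horizontal axis), with 1 array per day. Blue circles are the probe set with the highest mean of each gene and grey squares the other probe sets of Canx and Pdia3. Dnajb9 read higher on each later day, while the 3 Canx probe sets took different courses.

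The members comprise the Hsp70 and Hsp90 machinery, the lectin chaperones, the disulfide isomerases and the transcription factor gene Xbp1. Hspa5 encodes BiP, the Hsp70 chaperone of the endoplasmic reticulum, which also holds the stress sensors inactive. It had log2 values of 11.63, 11.55, 11.96 and 12.22 on days 0, 3, 6 and 9. Days 0 and 3 were close together and day 9 was the highest, with a difference of 0.59 from day 0, a ratio of 1.51. Hsp90b1, which encodes the Hsp90 chaperone GRP94, read 11.52, 11.39, 11.59 and 11.88 on the same days. Its course was similar and smaller, with 0.36 for day 9 against day 0.

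Dnajb9 and Dnajb11 encode J-domain proteins that hand clients to BiP and stimulate its ATPase. Dnajb9 (ERdj4) had values of 8.85, 9.34, 9.64 and 9.88 on days 0, 3, 6 and 9. As deposited, it was the only member above day 0 on day 3, and its difference was 0.49, 0.79 and 1.02 on days 3, 6 and 9, the last a ratio of 2.03. Dnajb11 (ERdj3) stayed within 0.27 over all 4 arrays, at 10.33, 10.09, 10.06 and 10.26. The pair thus differed in course, though single arrays allow no test of that difference.

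Calr encodes calreticulin, a soluble lectin chaperone that binds glycoproteins with a single remaining glucose. It had the deepest dip on day 3, with values of 10.27, 9.76, 10.10 and 10.43 on days 0, 3, 6 and 9 and a difference of -0.51 for day 3 against day 0. By day 9 it was 0.16 from day 0 and 0.67 from day 3.

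Canx encodes calnexin, its membrane-bound relative, and its 3 probe sets did not move alike. The brightest by mean read 11.80, 11.60, 11.29 and 11.15. The next read 11.37, 11.06, 11.02 and 11.29, and the dimmest read 7.86, 7.59, 8.49 and 8.28. On day 9 they lay at -0.65, -0.07 and 0.42 against day 0, so no direction can be given for Canx beyond day 3, when all 3 were below day 0 by 0.20 to 0.30. The sources used here do not place the probe sets along the transcript.

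Pdia3, Pdia4 and Pdia6 encode protein disulfide isomerases, of which PDIA3 (ERp57) works with calnexin and calreticulin on glycoproteins. Pdia4 (ERp72) had values of 9.71, 9.46, 9.70 and 10.30 on days 0, 3, 6 and 9. Nearly all of its difference arose in the last step, in which day 9 lay 0.60 above day 6, while day 6 was at -0.01 from day 0. Pdia3 read 11.87, 11.50, 11.50 and 11.78. It was low on days 3 and 6 and back near its first value on day 9, at -0.09, and its dim second probe set was likewise lower on days 3 and 6, with 5.98, 5.50, 5.56 and 5.72. Pdia6 moved least of all members, over a range of 0.14, at 10.81, 10.77, 10.86 and 10.91.

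Xbp1 encodes the transcription factor that IRE1 activates by splicing its mRNA. It had values of 10.49, 10.25, 10.41 and 10.92 on days 0, 3, 6 and 9, so day 9 stood 0.43 above day 0 and 0.67 above day 3. The probe set value does not separate spliced from unspliced mRNA.

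On day 3, 0 of the 10 members were 2-fold or more higher than on day 0 and 0 lower, where 4.31% of all genes above the floor were higher and 2.15% lower. The median member was at -0.22 and the median gene at -0.05, and 1 of the 10 members was above 0, where 44.2% of all genes were. With arrays centred on housekeeping genes the member median was -0.019 and the median gene was at 0.15. Relative to the median gene the member median stood at -0.16, and between -0.20 and -0.16 under all the alternatives tried. At 1.5-fold, a log2 difference of 0.58, 0 members were higher and 0 lower, against 10.2% and 10.0% of all genes.

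On day 6 the counts were again 0 higher and 0 lower, against 5.74% and 8.08% of all genes. The median member was at -0.05 and the median gene at -0.18. The sign of that member median depends on the scaling, with 0.13 after centring on the median gene, 0.22 on housekeeping genes and -0.45 on the spike-ins. At 1.5-fold Dnajb9 was the 1 member higher and 0 were lower, where 12.1% and 22.9% of all genes were.

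On day 9, 1 member was 2-fold or more higher than on day 0 and 0 lower, against 5.57% and 6.25% of all genes, so the members' count was near that of genes at large. At 1.5-fold 3 were higher, Dnajb9, Hspa5 and Pdia4, and 1 was lower, Canx by its brightest probe set, where 12.0% and 19.6% of all genes were. Hspa5 and Pdia4 passed that line barely, each at 0.59. The member median was 0.26 and that of all genes -0.14. Centring on housekeeping genes put the member median at 0.55, while taking the spike-ins as zero point turned it to -0.36, and then Dnajb9 (0.40) was the 1 member still above day 0. Relative to the median gene, which a common shift of an array leaves as it is, the member median stood at 0.40 and between 0.28 and 0.41 under all the alternatives tried. On that relative scale Dnajb9 was at 1.16, Hspa5 and Pdia4 at 0.73 each, Xbp1 at 0.57 and Hsp90b1 at 0.50, while Dnajb11 and Pdia3 lay at 0.08 and 0.05.

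**Figure D2:**
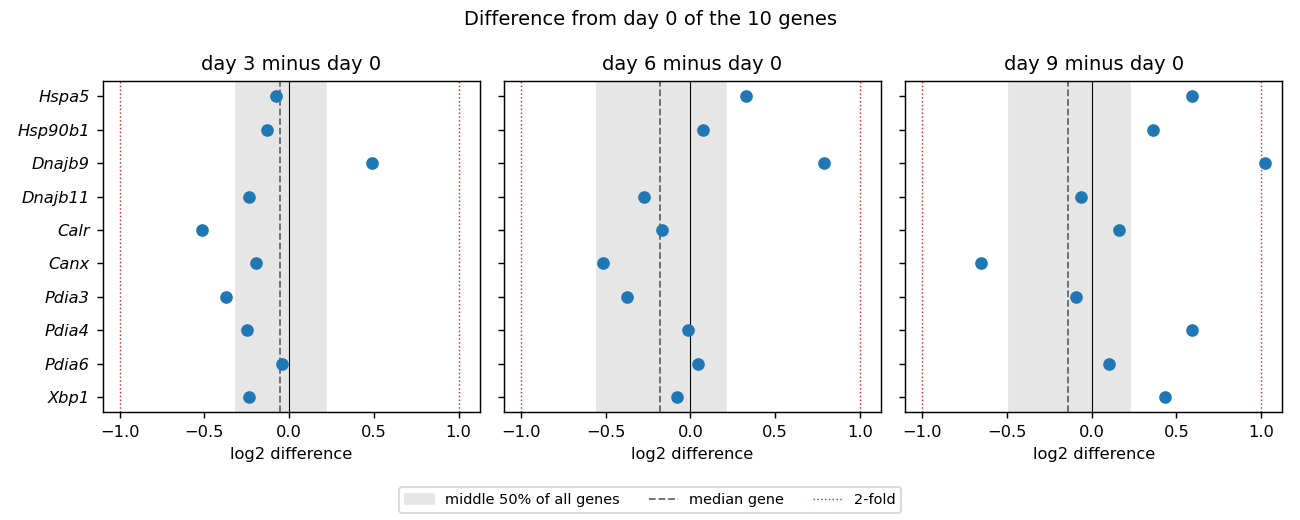
Log2 difference from day 0 (horizontal axis) of the 10 genes (rows, brightest probe set of each) on days 3, 6 and 9, with 1 array per day. The grey band holds the middle 50% of the 8802 genes above the floor, the dashed line is their median and the dotted lines mark 2-fold. On day 9 the members' median was 0.26, with Dnajb9 at 1.02 and Canx at -0.65.

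The largest shared difference was between days 9 and 3, a comparison picked after the values were seen. Against day 3, 9 of the 10 members were above 0 on day 9, where 42.5% of all genes were. The member median was 0.51 and the median gene was at -0.07. Pdia4 was at 0.84, Calr, Hspa5 and Xbp1 at 0.67 each, Dnajb9 at 0.53 and Hsp90b1 at 0.49. The exception was Canx at -0.45, though its other probe sets were above day 3. At 1.5-fold 4 members were higher and 0 lower, against 6.15% and 12.0% of all genes, and 0 were 2-fold higher or lower, where 1.74% and 3.66% of genes were. By spike-in centring the member median was 0.04, with 0 members 1.5-fold higher. Relative to the median gene it was 0.58, and 0.52 to 0.59 under the alternatives.

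The 2 steps shared this difference. From day 3 to day 6 the member median was 0.18 and the median gene -0.13, with Hspa5 at 0.40 and Calr at 0.34. From day 6 to day 9 they were 0.27 and 0.05, with Pdia4 at 0.60 and Xbp1 at 0.51. For day 6 against day 3, 0 members were 1.5-fold higher or lower, where 3.49% and 9.15% of all genes were, and 0 were 2-fold higher or lower, where 0.829% and 1.60% were. For day 9 against day 6, Pdia4 was the 1 member 1.5-fold higher and 0 were lower, where 2.66% and 2.84% of all genes were. In that step 0 were 2-fold higher or lower, where 0.250% and 0.591% were. In all, 7 of the 10 genes went below day 0 on day 3 and then upward at each of the next steps, an order seen in 10.5% of all genes above the floor. Pdia3 kept it by 0.001 between days 3 and 6 alone.

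Several features of the arrays moved with the days. On days 3, 6 and 9 the 18 spike-in probe sets had median differences of 0.14, 0.39 and 0.63 from day 0. The 3' probe set of the beta-actin control exceeded its 5' probe set by 2.25, 2.44, 1.22 and 2.35 on days 0, 3, 6 and 9. In that control day 6 stood apart, while the GAPDH control gap stayed between -0.02 and 0.18. The hexokinase control gap was 1.41, 1.48, 1.45 and 1.75 on those days, largest on day 9. Its 5' probe set lay under the brightest bacterial control on each array. Members read at most 12.22, well under the brightest probe set of any array, 14.23, and their brightest probe sets were at least 4.66 above the brightest bacterial control. All 10 markers of stratified epithelium were above the floor on these arrays. On day 9, 3 of them were 2-fold or more higher than on day 0 and 0 lower, where 5.57% and 6.25% of all genes were. These were Krt13 by 4.24, Krt15 by 2.68 and Jup by 1.13. The other markers lay between -0.31 (Itgb4) and 0.84 (Perp), with Krt5 at -0.28 and Krt14 at 0.04. None of 8 fibroblast, 7 endothelial and 6 secretory gland markers was above the floor. Of 7 leukocyte markers Cd14 (-1.86 on day 9 against day 0) and Cd68 (0.86) were above it. The defining leukocyte marker Ptprc lay between 2.79 and 2.93, under the brightest bacterial control. Cd68 was under the floor on day 0, at 5.32. The part of these controls and markers in the results was not tested. In RNA from a whole culture, fewer cells of a type and less RNA per cell cannot be told apart.

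The promoters of these genes were read, after the values were seen, to find which carry the known stress elements. The RefSeq table for build GRCr8 holds windows of 300 bases, 250 before and 50 after each annotated start, and those of 7 members are described here, without Canx, Pdia3 and Pdia6. The ERSE was searched on both strands as CCAAT, 9 free bases, then CCACG, and it was present in 22 of 33469 windows (0.0657%). It was in 4 of the 7 member windows, those of Hspa5, Hsp90b1, Calr and Xbp1. Chaperone genes are known targets of this element, so its presence in members is no independent finding. ERSE-II, searched as ATTGG, 1 free base, then CCACG, was in 0.0508% of windows and in that of Dnajb11. The XBP1-type element TGACGTGG was in 0.595% of windows and in 0 of the 7. The 2 short boxes are common, with CCAAT in 37.5% of windows and CCACG in 31.6%, and every ERSE match also counts as a match of each. Other patterns were looked at too. The E-box CACGTG was in 6.42% of windows and in that of Dnajb9, and an ATF4 composite site, TGATGNAAN, in 3.97% and in 0 of the 7. Allowing 1 mismatch, the ERSE was in 1.41% of windows and in 5 of the 7, with Pdia4 added, and TGACGTGG in 15.3% and in those of Dnajb9 and Hspa5. A match is a description of letters in this window, and a missing one says nothing about binding elsewhere.

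The whole window is shown for Hspa5, which has an ERSE 43 bases before its start, and for Dnajb9, the member that moved most, which has no ERSE. The Hspa5 window is chr3:38452766-38453065 on the plus strand and the Dnajb9 window chr6:67002002-67002301 on the minus strand, both printed 5′ to 3′ along the gene, with every CCAAT and CCACG in capitals, on either strand, so that a box on the other strand appears as ATTGG or CGTGG. In Hspa5 the last 2 runs of capitals are the ERSE, and in Dnajb9 the boxes stand in the opposite order, 105 and 62 bases before the start.
Hspa5: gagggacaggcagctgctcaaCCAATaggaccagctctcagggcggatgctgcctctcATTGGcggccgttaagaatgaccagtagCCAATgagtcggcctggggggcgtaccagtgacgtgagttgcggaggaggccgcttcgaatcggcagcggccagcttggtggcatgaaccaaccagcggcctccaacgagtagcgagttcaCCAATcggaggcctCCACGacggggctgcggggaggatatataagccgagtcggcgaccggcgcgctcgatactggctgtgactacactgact
Dnajb9: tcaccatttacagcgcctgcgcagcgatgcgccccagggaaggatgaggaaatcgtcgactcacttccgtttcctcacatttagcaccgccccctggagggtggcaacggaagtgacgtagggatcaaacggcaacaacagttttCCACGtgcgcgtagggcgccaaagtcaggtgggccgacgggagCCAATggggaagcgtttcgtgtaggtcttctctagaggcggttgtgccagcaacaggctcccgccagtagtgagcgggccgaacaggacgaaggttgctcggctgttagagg

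The other elements are shown with 10 bases on each side to let the spacing be compared, with the fixed letters of the ERSE or ERSE-II in capitals. They lie at chr7:23012441-23012479 and chr7:23012337-23012375 for Hsp90b1 (minus strand), chr19:40213125-40213163 for Calr (plus), chr14:84604548-84604586 for Xbp1 (plus) and chr11:91672790-91672820 for Dnajb11 (minus), and each is printed along its gene. In the nearer element of Hsp90b1 and in Calr the match is on the opposite strand and so reads backwards.
Hsp90b1, farther: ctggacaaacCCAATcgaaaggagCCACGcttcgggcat
Hsp90b1, nearer: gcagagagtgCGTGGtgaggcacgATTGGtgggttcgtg
Calr: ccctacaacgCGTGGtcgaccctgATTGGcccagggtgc
Xbp1: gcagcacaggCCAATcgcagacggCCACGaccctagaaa
Dnajb11: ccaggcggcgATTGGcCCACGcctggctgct

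Matches began 43 bases before the start in Hspa5, 65 in Xbp1, 176 and 72 in Hsp90b1 and 232 in Calr, and the ERSE-II of Dnajb11 began at 10. No shared direction is read from these windows, which are not those of all members. Hspa5, Hsp90b1, Calr and Xbp1 had 0.49 to 0.67 for day 9 against day 3, and Dnajb11 had 0.18. Pdia4, with 0.84 in that comparison, and Dnajb9, with 0.53, had neither exact element in their windows, though Pdia4 had the ERSE with 1 mismatch.

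**Figure D3:**
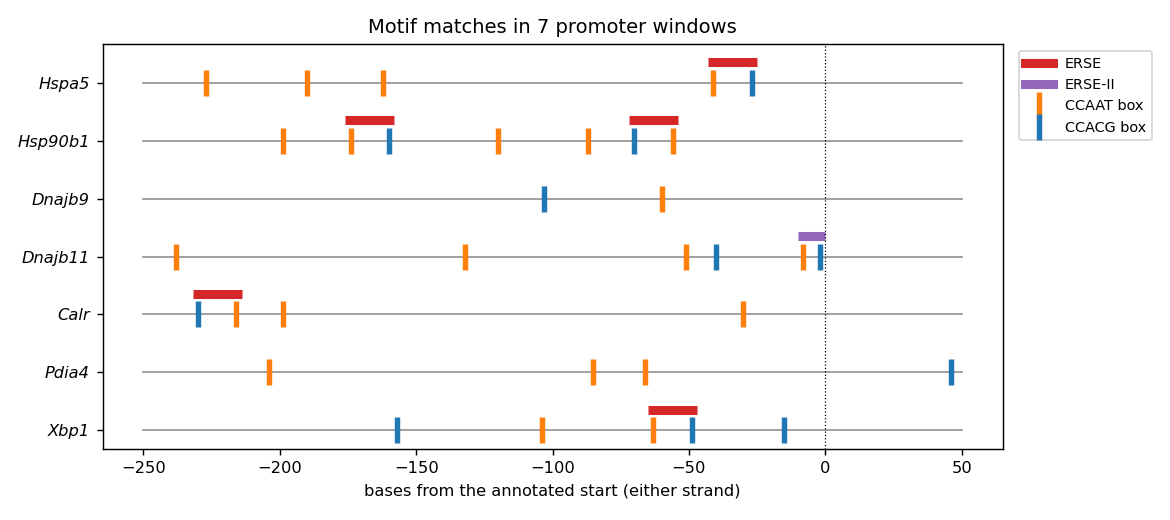
Motif matches in the promoter windows of 7 members (rows), by bases from the annotated start (horizontal axis), on either strand. Red bars are ERSE and the purple bar ERSE-II, with CCAAT boxes as orange and CCACG boxes as blue ticks. Hspa5, Hsp90b1, Calr and Xbp1 hold an ERSE, Dnajb11 an ERSE-II, and Dnajb9 and Pdia4 neither exact element.

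Beyond the members, 19 genes above the floor had an ERSE or ERSE-II in their window, of 7424 genes above the floor with a window. Their median was -0.13, -0.18 and -0.06 on days 3, 6 and 9 against day 0, and 0.01 for day 9 against day 3, near the median gene at -0.07. Among them Dnajc3, which encodes the BiP cochaperone p58IPK, had values of 9.29, 8.90, 9.11 and 9.88, low on day 3 and high on day 9 as in most members, with 0.98 between those days. Creld2, a gene of an endoplasmic reticulum stress protein, read 8.83, 8.71, 8.72 and 9.27. Herpud1, a scaffold of the degradation machinery and an ERSE-II gene, took the other course, at 9.22, 9.89, 9.69 and 9.48, with its peak on day 3. These 3 were named after their values were seen.

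**Figure D4:**
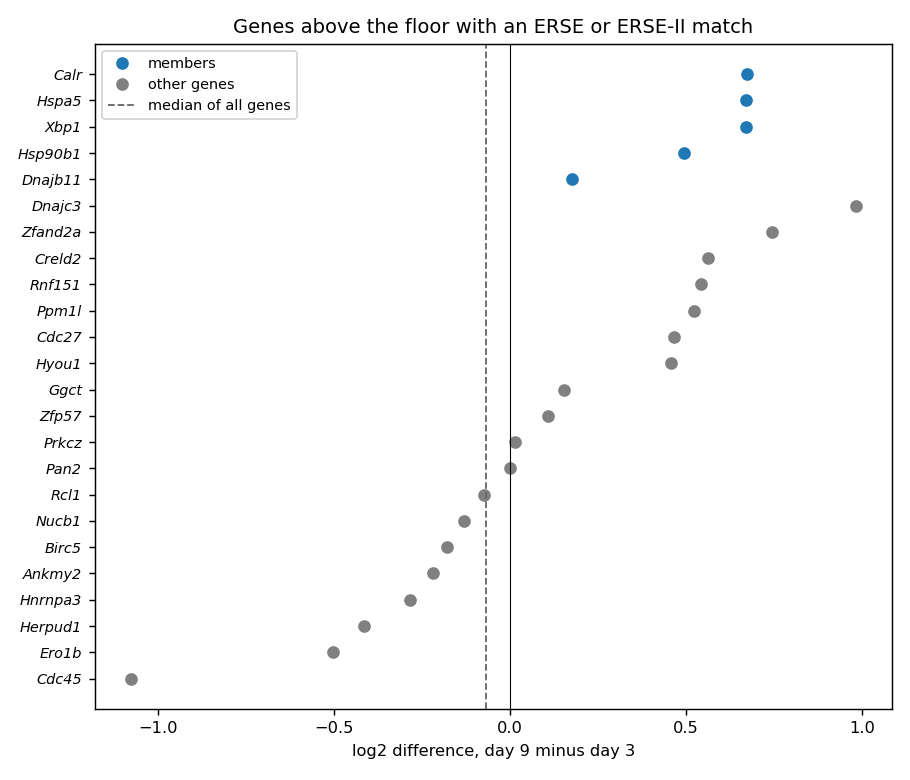
Log2 difference of day 9 minus day 3 (horizontal axis) for 24 genes above the floor with an ERSE or ERSE-II in their window (rows), members in blue and other genes in grey, with 1 array per day. The dashed line is the median of all genes above the floor, -0.07. The members shown, which are not all 10, spread from 0.18 (Dnajb11) to 0.67 (Calr), and other genes from -1.08 (Cdc45) to 0.98 (Dnajc3).

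Other genes of the same compartment were read as lists. The 7 lists of folding, glycosylation, degradation and translocation genes held 100 genes above the floor. Their median was -0.14, -0.21 and -0.08 on days 3, 6 and 9 against day 0, against -0.05, -0.18 and -0.14 for all genes. Of these, 1 was at least 2-fold higher on day 9 and 3 were at least 2-fold lower, against 5.57% and 6.25% of all genes.

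The BiP partners held 11 genes with a median of 0.11 on day 9, and none was 2-fold higher or lower on that day. Hyou1, the large Hsp70 that exchanges nucleotide on BiP, was at 0.76, Sil1, another exchange factor, at 1.08 on day 3 and 0.36 on day 9, and the translocon-bound J protein gene Sec63 at -0.54 on day 9 (0.94 in another of its probe sets). Among 18 other disulfide isomerases and oxidases, 3 reached 2-fold higher on day 3 and 1 on day 9, where 4.31% and 5.57% of all genes did, with 0 lower on either day. The sulfhydryl oxidase gene Qsox1 was higher by 1.08, 1.47 and 1.89 on days 3, 6 and 9. Ero1a, which encodes the main oxidase of disulfide isomerases, was 1.54 higher on day 3 and at -0.26 on day 9, when its other probe set was at 0.88, and Txndc12 was 1.02 higher on day 3 and at -0.60 on day 9.

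Of 7 prolyl isomerase genes above the floor 4 were 2-fold or more lower on day 6 and 3 on day 9, where 8.08% and 6.25% of all genes were, with 0 higher. Fkbp9 was at -1.90 on day 9, Ppic at -1.30 and Fkbp7 at -1.11, and the list median was -0.82. Fkbp7 passed the floor only through days 0 and 3, and Fkbp14, which holds the median place, only through day 0. For both, a lower later value is partly built in. In the glycan trimming list of 7 genes none was 2-fold higher or lower on any day, with the glucosidase gene Ganab at 0.67, the lectin gene Mlec at 0.60 and Edem2 at -0.32 on day 9. The 12 oligosaccharyltransferase genes had a median of -0.22 on day 9, when 0 were 2-fold higher or lower. Tusc3 was at -0.98 on that day and -1.16 on day 6, Rpn1 at -0.39 and Magt1 at 0.47.

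The 22 degradation genes had a median of 0.14 on day 9 and, by their brightest probe sets, held no gene 2-fold higher or lower on any day. The Hrd1 partner gene Sel1l was at 0.65, Derl1 at 0.58 and Faf2 at 0.75 on day 9. Other probe sets put Faf2 at 1.21 and 0.09 and Derl1 at 0.29 and 0.11 on that day. For 23 genes of signal recognition, the translocon and signal peptidase the median was -0.10, again with none past 2-fold, and Sec62 was at 0.62, Tram1 at -0.59 and Sec61a1 at -0.17 on that day. In another probe set Tram1 was at -1.69, and in its other probe sets Sec61a1 was at 0.49 and 0.05.

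The stress sensors and their processing genes had list medians of 0.11, 0.02 and 0.00 on days 3, 6 and 9. Of 10 genes of this list above the floor, 1 was 2-fold higher on day 3 and 0 on day 9, where 4.31% and 5.57% of all genes were. Atf6, which encodes the sensor that is cleaved into a transcription factor, had values of 9.36, 10.45, 10.11 and 9.82 on days 0, 3, 6 and 9. Mbtps2, a protease that cleaves it, was at 0.88 on day 3 and -0.06 on day 9, and Wfs1 was at 0.97 on day 9. Wfs1 passed the floor only through days 6 and 9, so its higher value there is partly built in. Atf6 was thus high on the array where most members were lowest.

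Genes of the PERK and ATF4 branch had their highest list median on day 3. Of 17 above the floor 11 reached 2-fold higher on day 3, 7 on day 6 and 2 on day 9, where 4.31%, 5.74% and 5.57% of all genes did, with 0 lower, and the list median was 1.21, 0.87 and 0.28. For day 9 against day 3 it was -0.77, with 10 genes 1.5-fold or more lower and 0 higher, against 12.0% and 6.15% of all genes, while the members had 0.51. Sesn2, Cebpb, Ppp1r15a and Ppp1r15b, named after their values were seen, were above day 3 on day 9, by 0.26, 0.16, 0.06 and 0.05. Slc7a11, the cystine transporter gene, was 2.84 higher on day 3 and at 0.59 on day 9. Vldlr was at least 6.69-fold higher on day 3, as day 0 was not above the brightest bacterial control, and its other probe sets were at -0.82 to -0.08 on day 9. It passed the floor only through day 3, so its place among the genes higher on that day is partly built in. Atf3, a stress transcription factor gene, was 2.06, 2.21 and 1.68 higher on days 3, 6 and 9. The difference between the 2 sets of genes was not tested.

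**Figure D5:**
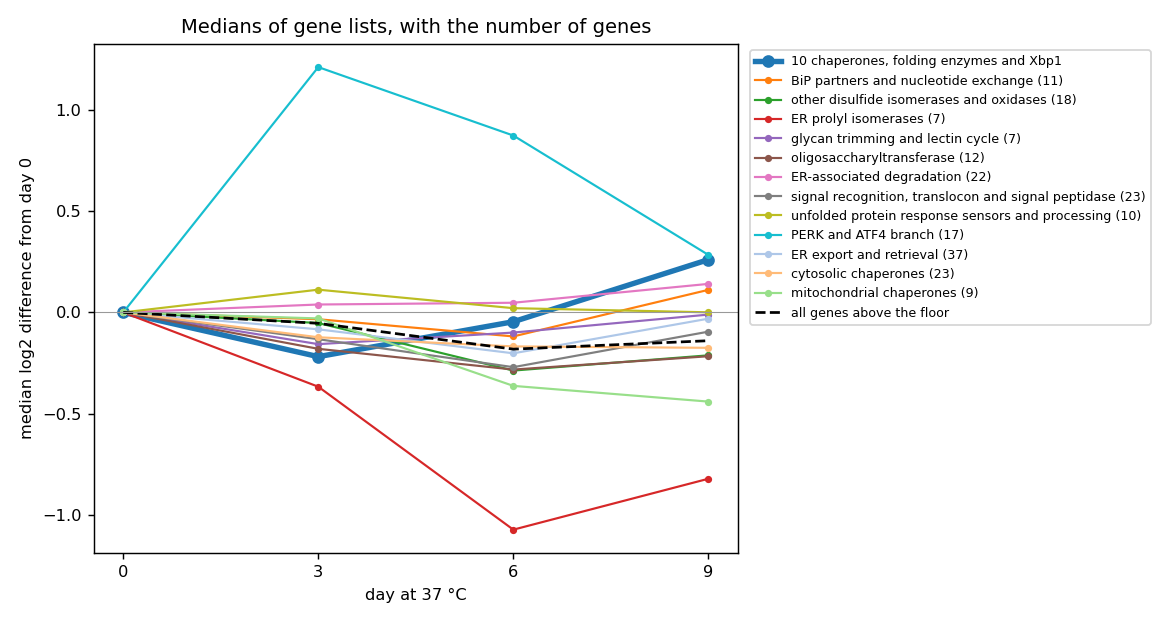
Median log2 difference from day 0 (vertical axis) by day at 37 °C (horizontal axis) for the 10 members (thick blue line), 12 other gene lists with the number of genes above the floor in brackets, and all genes above the floor (dashed), with 1 array per day. The PERK and ATF4 list peaked on day 3 at 1.21, when the member median was -0.22.

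Genes whose course was most like the median member were found by the root mean square distance over the differences of days 3, 6 and 9 from day 0. The 8 nearest were Atosb, Pcbp4, Nipal2, Nsdhl, Aph1a, Ap1m1, Ighmbp2 and Tspan9, at distances of 0.018 to 0.041. Atosb, for example, had differences of -0.20, -0.07 and 0.27, beside -0.22, -0.05 and 0.26 for the median member. Among the members Xbp1 and Hsp90b1 lay nearest, both at 0.10, and Canx and Dnajb9 farthest, at 0.59 and 0.77. Of all genes above the floor, 1.45% and 1.57% lay nearer than Xbp1 and Hsp90b1, and 65.1% and 79.0% nearer than Canx and Dnajb9. The 3 differences share the day 0 array. The members themselves set that median, so their closeness to it is partly built in.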

How the data were processed

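ROE2 RNA of 4 days was measured on 1 Affymetrix rat 3' expression array each, from 500 ng of total RNA with integrity numbers of 9.5 to 10, per the labels' protocols. The deposited values are log2 values per probe set. RMA is the method that the submitters' processing notes name for them, and its software, version and options are not given here. The base of the logarithm follows from their range. RMA makes array distributions nearly alike, so total RNA per cell is not measured.

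The platform annotation gave 1 symbol for 20832 probe sets, several for 436 and none for 9831. Entrez identifiers matched the RefSeq table for 20764. A gene took its brightest probe set by mean. Differences were taken between arrays with 2-fold as the threshold, and the code was checked with simulated data. With 1 array per day, precision is limited by that number and no p-value was computed. Members and gene lists were chosen with earlier results of these data known. The comparison of days 9 and 3, the counts at 1.5-fold, the gap between probe sets and the promoter search were taken up after the values were seen. Named genes are the members, the 3 farthest from day 0 in each list of folding, transport, stress or chaperone genes, and the 8 nearest in course. Dnajc3, Creld2, Herpud1, Cdc45, Sesn2, Cebpb, Ppp1r15a, Ppp1r15b, Stip1, Dnajb1, Tfrc and the markers fall outside this rule and were named after their values were seen. Alternatives varied the floor (none, 5, 8), the summary of several probe sets, probe sets marked for cross-hybridisation, the scaling and the threshold (1.5-fold, 3-fold). The promoter of Canx is not reported here. Software was Python 3.11.15, pandas 2.3.3, numpy 2.4.6 and matplotlib 3.10.9.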

Additional observations from a re-analysis of the deposited data

How the results depend on the processing

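Changing the floor, averaging over probe sets, using unmarked probe sets, centring on the median gene and a further quantile normalization left the 2-fold counts as reported and moved the member medians by less than the median gap between probe sets of a gene (0.19, 0.42 and 0.40 on days 3, 6 and 9), which is within arrays and holds no variation between arrays or cultures. Within that, centring on the median gene gave 0.13 on day 6 and 0.39 on day 9. Centring on the spike-ins gave medians of -0.45 on day 6 and -0.36 on day 9, with 0 members 2-fold higher on either day. On day 6, 0 were 2-fold lower, and on day 9, 1 was, Canx at -1.27 by its brightest probe set. With this centring the median gene lay at -0.59 on day 6 and -0.77 on day 9. Centring on housekeeping genes, by the median of each gene's deviation from its own mean, gave -0.019, 0.22 and 0.55 on days 3, 6 and 9 and 1 member higher on day 6. The median gene then lay at 0.15, 0.09 and 0.16. This centring was first computed as the median of the housekeeping levels and was replaced after its result was seen, because Tfrc, near the middle of that list and at -1.43, -2.21 and -1.41, shifts that median. The first form, kept as an alternative added after seeing the data, gave medians of 0.53, 0.67 and 1.00 on days 3, 6 and 9 with 1, 2 and 5 members higher. It put the median gene at 0.70, 0.55 and 0.61, and the member median relative to that gene at 0.39 on day 9. Shares of all genes past 2-fold under these centrings are not given here. At 1.5-fold 1 member was higher on day 6, and 3 were higher and 1 lower on day 9, and at 3-fold 0 were higher on day 9. Of 30 member differences from day 0, 9 changed sign with the spike-ins, 9 with housekeeping genes, 18 with housekeeping levels, 6 with the median gene and 1 with quantile normalization, and 0 under the other settings. No paired analysis was possible because each day has 1 array.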

Other observations

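Chaperones outside the endoplasmic reticulum were mixed in course. Of 23 cytosolic chaperone genes above the floor, 1 was 2-fold higher on day 3, where 4.31% of all genes were. On day 9, 0 were higher and 1 lower, where 5.57% and 6.25% of all genes were. The list median was -0.12, -0.17 and -0.17 on days 3, 6 and 9. The J protein gene Dnajb4 was at -1.24 on day 9, and the small heat shock genes Hspb8 and Hspb1 were at 1.06 and 0.87 on day 6 and at 0.55 and 0.73 on day 9. Stip1 and Dnajb1, cochaperone genes, were highest on day 9, at 0.51 and 0.49 against day 3, values like those of several members. The 9 mitochondrial chaperone and protease genes had a median of -0.44 on day 9. None was past 2-fold on that day, where 5.57% of all genes were higher and 6.25% lower. Trap1 was at -0.84, the chaperonin gene Hspe1 at -0.54 and the protease subunit gene Clpx at 0.51.

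The 37 genes of export from and retrieval to the endoplasmic reticulum had a median of -0.03 on day 9. On that day 0 were 2-fold higher and 2 lower, where 5.57% and 6.25% of all genes were. Ergic1 was at -1.01, Tango2 at -1.05 (0.31 in another probe set) and the coat gene Sec24d at -0.46. All these are values of single arrays.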
